A study of Mus musculus with 80 samples.

Results

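The genes described here encode the COMPASS family of histone H3 lysine 4 (H3K4) methyltransferases and the subunits that make them active, in mouse embryonic stem cells (ESC) that lost 1 of these enzymes. The 10 genes were taken by symbol: the methyltransferases Kmt2a, Kmt2b, Kmt2c, Kmt2d, Setd1a and Setd1b, and the subunits Ash2l, Rbbp5, Men1 and Cxxc1. They are 10 of 24508 gene symbols in each of 5 tables of FPKM (fragments per kilobase, scaled for sequencing depth), and all 10 were found in every table. Each COMPASS complex carries a SET-domain methyltransferase that is weakly active alone and works on a shared core that includes ASH2L and RBBP5. SETD1A and SETD1B place most promoter H3K4 trimethylation, MLL1 (Kmt2a) and MLL2 (Kmt2b) act at chosen genes, and MLL3 (Kmt2c) and MLL4 (Kmt2d) place H3K4 monomethylation at enhancers. In ESC, MLL2 is known for trimethylating H3K4 at bivalent promoters, which also carry the Polycomb mark H3K27me3.

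Every library came from Mll2F/F:CreERT2/+ ESC, a line derived from C57Bl/6 blastocysts whose floxed Mll2 alleles a Cre recombinase deletes once 4-hydroxytamoxifen is given. The cells grew on gelatin without feeders in serum with LIF. Knockout (KO) cells received 10-6 M 4-hydroxytamoxifen for 96 h and wild type (WT) cells the carrier, so the deletion and the drug cannot be told apart in any comparison below. RNA-seq covered the ESC at the end of that treatment (day 0) and hanging-drop embryoid bodies at days 3, 6 and 9 (the cell type label reads embryoid bodies at day 0 too), and PRO-seq, a nuclear run-on that measures engaged RNA polymerase, covered ESC after the same 96 h. Each day and the PRO-seq had 2 WT and 2 KO libraries, and since no label calls the replicates separate cultures, the p-values reflect the spread among the libraries at hand, which may be technical. The question put to the data was whether any other COMPASS gene was higher where Kmt2b was deleted.

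Libraries held 29018994 to 34476635 reads on genes in RNA-seq and 16328491 to 20048187 in PRO-seq, where the top 10 genes took 45.9 to 54.2% of reads. Each COMPASS gene rested on at least 700 reads in every RNA library and at least 214 in every PRO-seq library. Magohb, a gene whose transcription is known to depend on MLL2, served as a check of the deletion and fell in all 5 tables, by 2.84, 3.19, 3.47 and 3.01 on the log2(FPKM + 1) scale at days 0, 3, 6 and 9 and by 1.76 in PRO-seq, with limma adjusted p-values of 0.0035, 0.0027, 3.68e-04, 0.0015 and 0.0281. The call in PRO-seq was lost with any 1 library left out (limma adjusted p 0.0528 to 0.0833) and that at day 0 without the first or the second WT library (0.0784 and 0.0910). With no filter on low values the adjusted p was 0.0912 at day 0, 0.0745 at day 9 and 0.0599 in PRO-seq. Magohb has a close relative, Magoh, and how reads shared by both were counted is not stated. The 8 pluripotency markers summed to 1562 to 3280 FPKM in the RNA libraries, with Pou5f1 and Tdgf1 the larger part at days 3 to 9. Klf4 stood at 39.2 to 107.8 FPKM at day 0 and at 3.22 to 12.5 on the later days.

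In WT ESC the subunits of the shared core stood above the enzymes. The level of Ash2l in the WT libraries was 77.9 ± 0.882 FPKM (SD, n = 2) at day 0 and that of Rbbp5 was 28.4 ± 0.730, both clear of every other gene. Setd1a followed at 13.9 ± 0.0714 FPKM, with libraries that overlapped those of Men1 at 12.9 ± 1.36. Kmt2b at 10.6 ± 1.69 FPKM overlapped Cxxc1 at 10.05 ± 1.49. Below them came Kmt2c at 5.73 ± 0.363, Setd1b at 4.86 ± 0.626, and Kmt2a at 3.49 ± 0.941, whose libraries overlapped those of Kmt2d at 2.54 ± 1.28. FPKM is per length, so this order compares transcripts. Among the 6 enzymes, Kmt2b ranked below Setd1a alone in the WT means of each RNA day and gave 22.4 to 29.6% of the summed enzyme FPKM in WT RNA libraries. In PRO-seq the order differed: Ash2l was again first at 40.7 ± 4.76 FPKM, Setd1b stood next at 15.3 ± 3.71 and overlapped Kmt2b at 12.9 ± 1.42, and Rbbp5 at 9.89 ± 2.21 lay among the enzymes. PRO-seq FPKM divides polymerase density by the same gene lengths as RNA-seq, so the values of both assays are set side by side without a test.

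**Figure D1:**
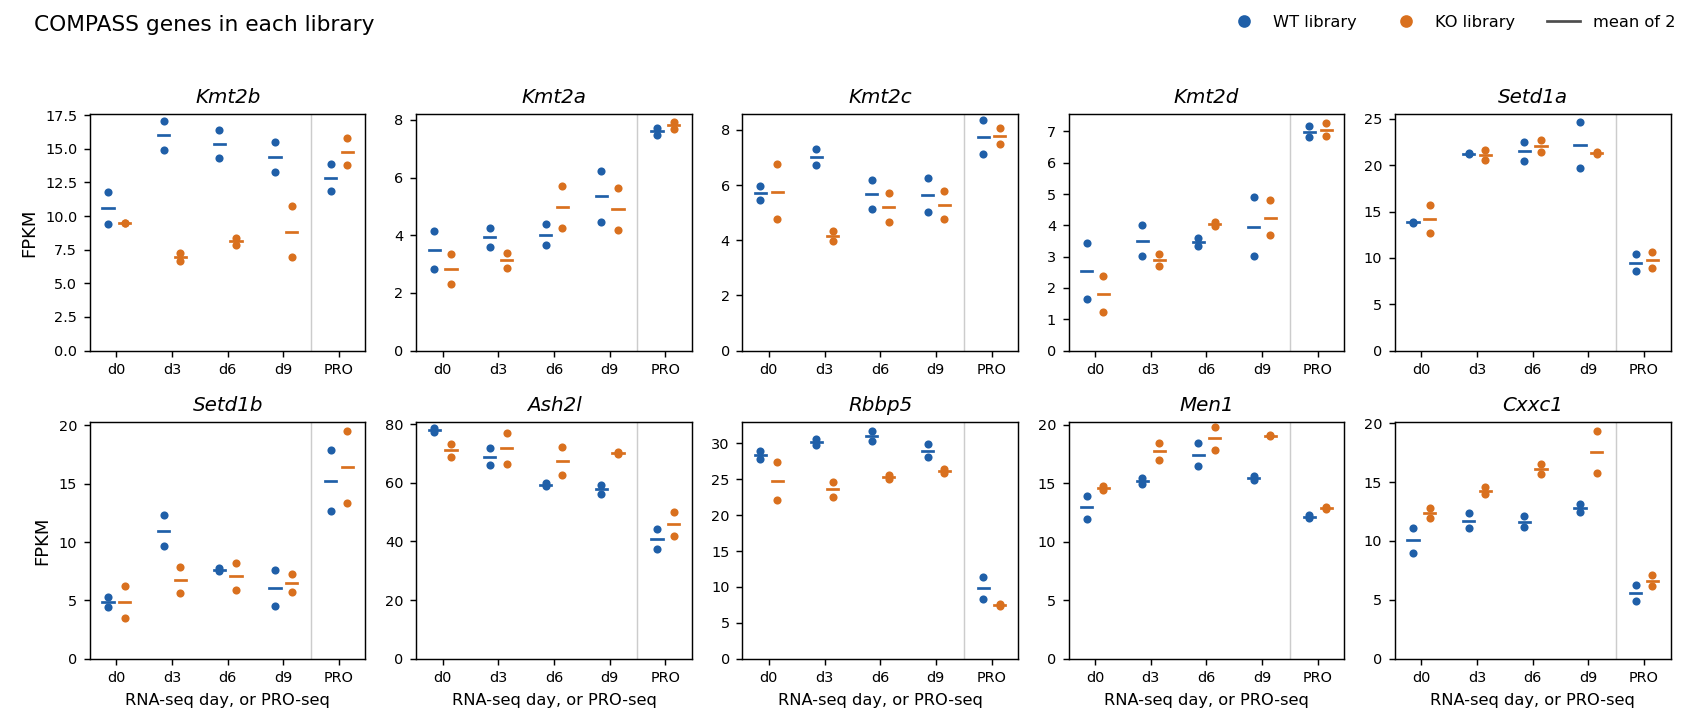
Level of each COMPASS gene (FPKM, vertical axis from 0) in the 2 WT and 2 KO libraries of each RNA day (d0 to d9) and of PRO-seq, with points for libraries and bars for means of 2. The KO libraries of Kmt2b lie below the WT libraries at days 3, 6 and 9 (at most 10.8 against at least 13.3 FPKM), while those of Cxxc1 lie above at all 4 days.

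Kmt2b, the deleted gene, was not called at the end of the drug treatment and fell at days 3 and 6. At day 0 its level was 9.44 and 11.8 FPKM in the WT libraries and 9.46 and 9.49 in the KO libraries. The genotypes overlapped, the difference was -0.14 on the log2(FPKM + 1) scale (95% interval -0.52 to 0.23), and the limma adjusted p was 0.814. The files give 1 value per gene, so the floxed exons could not be looked at separately. At day 3 the WT libraries held 14.9 and 17.1 FPKM and the KO libraries 6.67 and 7.27, with no overlap, and Kmt2b fell by 1.09 (SE 0.0977, limma adjusted p 0.0046). At day 6 it was 16.4 and 14.3 FPKM in WT and 8.41 and 7.88 in KO, and fell by 0.84 (SE 0.105, limma adjusted p 0.0076). This fall had an adjusted p of 0.0622 without the first WT library. At day 9 the WT libraries held 15.5 and 13.3 FPKM and the KO libraries 10.8 and 6.94. These did not overlap, but the KO pair lay far apart and the difference of -0.67 (interval -1.14 to -0.19) had an adjusted p of 0.106, and of 0.0131 without the first KO library. In PRO-seq the gene stood at 11.9 and 13.9 FPKM in WT and 13.8 and 15.8 in KO, which overlapped, with a difference of 0.19 (interval -0.11 to 0.49, limma adjusted p 0.497).

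None of the other 5 methyltransferase genes was called higher in KO at any day or in PRO-seq. The share of all tested genes called higher was 1.4, 9.75, 5.4 and 1.94% at days 0, 3, 6 and 9 and 0.667% in PRO-seq. None of the 5 was higher at an unadjusted p under 0.05 in any table. The 95% intervals, each for 1 gene, show how large a rise the libraries still allow: the highest upper bound among the 5, as a fold on the log2(FPKM + 1) scale, was 1.44 at day 0, 1.12 at day 3, 1.53 at day 6, 1.57 at day 9 and 1.55 in PRO-seq. Setd1b held that bound at day 0, day 9 and in PRO-seq, Setd1a at day 3 and Kmt2a at day 6.

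Kmt2a encodes MLL1, the closest relative of MLL2. Its level at day 0 was 4.16 and 2.83 FPKM in WT and 3.33 and 2.31 in KO. It was 3.59 and 4.27 against 3.40 and 2.88 at day 3, the day on which its libraries did not overlap, and the difference of -0.25 (interval -0.55 to 0.05) had an adjusted p of 0.184. At day 6 the sign was opposite, with 4.38 and 3.66 FPKM in WT and 5.71 and 4.26 in KO, overlapping libraries and a difference of 0.25 (interval -0.12 to 0.61, limma adjusted p 0.317). By day 9 the values were 6.24 and 4.45 in WT and 5.65 and 4.17 in KO, again overlapping. In PRO-seq, where its 4 libraries lay between 7.49 and 7.93 FPKM, the difference was 0.03 (interval -0.21 to 0.27). Kmt2a was thus neither called nor of 1 sign over the days.

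Kmt2c encodes MLL3, an enhancer H3K4 monomethyltransferase, and was the one other enzyme gene called lower in a single table. Setd1b, described below, was near the threshold on the same day. At day 3 Kmt2c was 6.73 and 7.32 FPKM in the WT libraries and 3.97 and 4.35 in the KO libraries. The groups stood apart, and Kmt2c fell by 0.64 (SE 0.0967, 95% interval -0.87 to -0.40, limma adjusted p 0.0133). With either WT library left out the adjusted p was 0.0693 or 0.0990. On the other days its libraries overlapped: 5.99 and 5.47 FPKM in WT against 6.76 and 4.76 in KO at day 0, 6.19 and 5.15 against 5.71 and 4.67 at day 6, and 6.24 and 5.02 against 5.80 and 4.76 at day 9. In PRO-seq it was 7.14 and 8.36 in WT and 7.48 and 8.05 in KO, and the interval of the difference ran from -0.28 to 0.29.

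Kmt2d encodes MLL4, the partner enzyme at enhancers, and was the lowest enzyme gene per length in the WT means of every RNA day. Its replicates differed more than its genotypes at day 0, with 3.44 and 1.64 FPKM in WT and 2.39 and 1.23 in KO. At day 3 it was 3.02 and 4.01 in WT and 3.07 and 2.70 in KO, and at day 6 3.59 and 3.33 against 4.12 and 3.97. Day 6 was the only day on which its libraries did not overlap, and the difference of 0.18 (interval -0.08 to 0.44) had a limma adjusted p of 0.310. At day 9 the values were 4.91 and 3.01 in WT and 4.82 and 3.68 in KO. In PRO-seq they were 6.81 and 7.18 in WT and 6.86 and 7.25 in KO, with an interval of -0.24 to 0.26.

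Setd1a and Setd1b encode the enzymes that place bulk promoter H3K4 trimethylation. Setd1a was the most abundant enzyme gene per length in RNA and gave the narrowest intervals of the 5 at day 3. It was 21.2 and 21.3 FPKM in WT and 20.6 and 21.7 in KO at day 3, overlapping, and the difference of -0.01 had an interval of -0.18 to 0.17. It was 13.9 and 13.8 in WT and 15.7 and 12.7 in KO at day 0, 22.5 and 20.5 against 21.4 and 22.8 at day 6, and 24.7 and 19.7 against 21.5 and 21.2 at day 9, all overlapping. The differences at these days were 0.02, 0.04 and -0.05, and that in PRO-seq 0.04, with limma adjusted p-values of 0.811 to 0.978 over these 4 tables. Setd1b differed from it at day 3: 9.64 and 12.3 FPKM in WT and 5.66 and 7.87 in KO. These did not overlap, and the difference of -0.63 (interval -1.05 to -0.21) missed the threshold with an adjusted p of 0.0506. Without the second KO library the difference was -0.84. Setd1b passed with libraries scaled to equal total FPKM (limma adjusted p 0.0326) or equal upper quartile (0.0377). It also passed with the replicate number as a block (limma adjusted p 0.0055) and with voom on recovered reads (0.0316). At day 0 it was 5.30 and 4.41 FPKM against 6.26 and 3.53, at day 6 7.77 and 7.53 against 5.91 and 8.19, and at day 9 7.61 and 4.52 against 5.71 and 7.24, all overlapping. In PRO-seq the second library of each genotype was the higher one, with 12.6 and 17.9 in WT and 13.4 and 19.5 in KO.

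**Figure D2:**
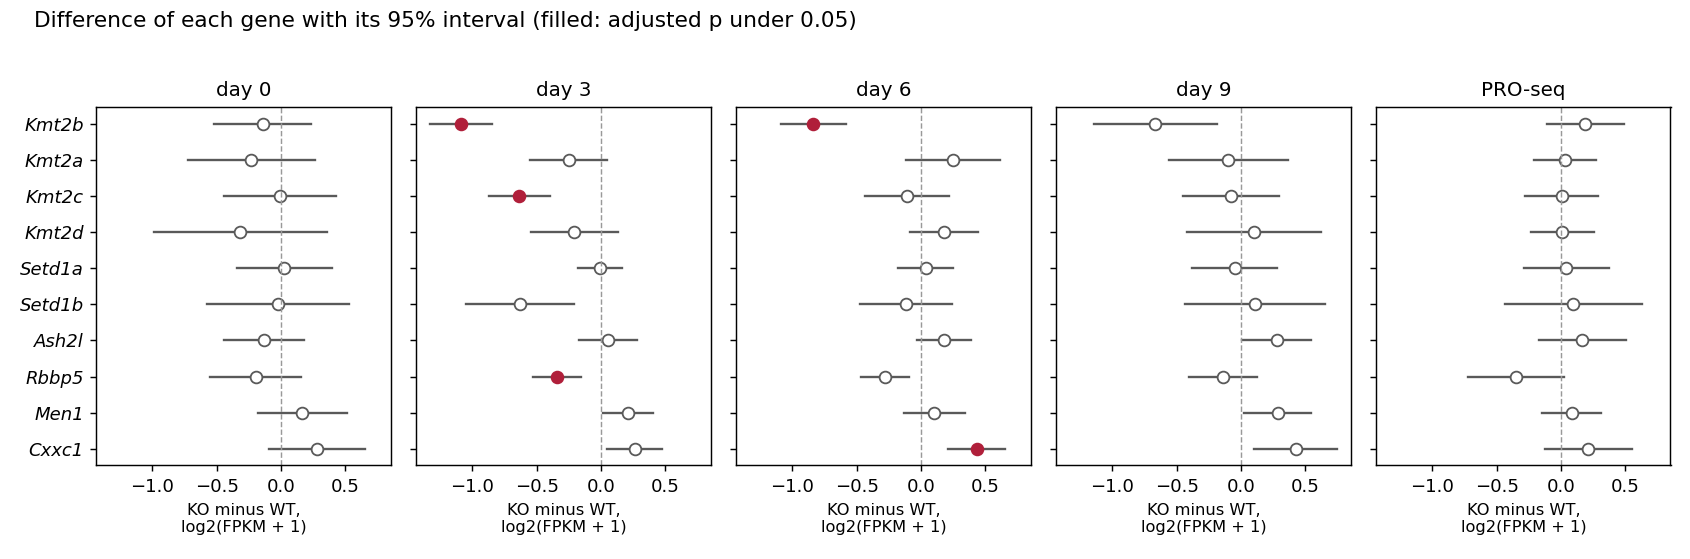
KO minus WT difference (horizontal axis, log2(FPKM + 1)) of each COMPASS gene in the 4 RNA days and in PRO-seq, with 95% intervals from limma and filled points for an adjusted p under 0.05. The filled points are Kmt2b, Kmt2c and Rbbp5 at day 3 (-1.09, -0.64 and -0.35) and Kmt2b and Cxxc1 at day 6 (-0.84 and 0.43).

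In no table did both KO libraries lie above both WT libraries in the summed FPKM of the 5 enzyme genes other than Kmt2b. At day 3 this sum was 44.2 and 49.2 in WT and 36.7 and 39.5 in KO, lower in both KO libraries. At day 6 it was 44.4 and 40.2 in WT and 42.8 and 43.8 in KO, and at day 9 49.7 and 36.7 against 43.5 and 41.0, overlapping both times. With Kmt2b included, the sum at day 6 was 60.9 and 54.5 in WT and 51.3 and 51.7 in KO, and the part of it from Kmt2b was 26.99 and 26.2% in WT and 16.4 and 15.2% in KO. At day 0 the sum without Kmt2b was 32.8 and 28.2 in WT and 34.5 and 24.5 in KO. In PRO-seq it was 42.7 and 51.5 in WT and 44.5 and 53.2 in KO, with the second library of each genotype above the first. These sums are a description of RNA levels and say nothing of protein.

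**Figure D3:**
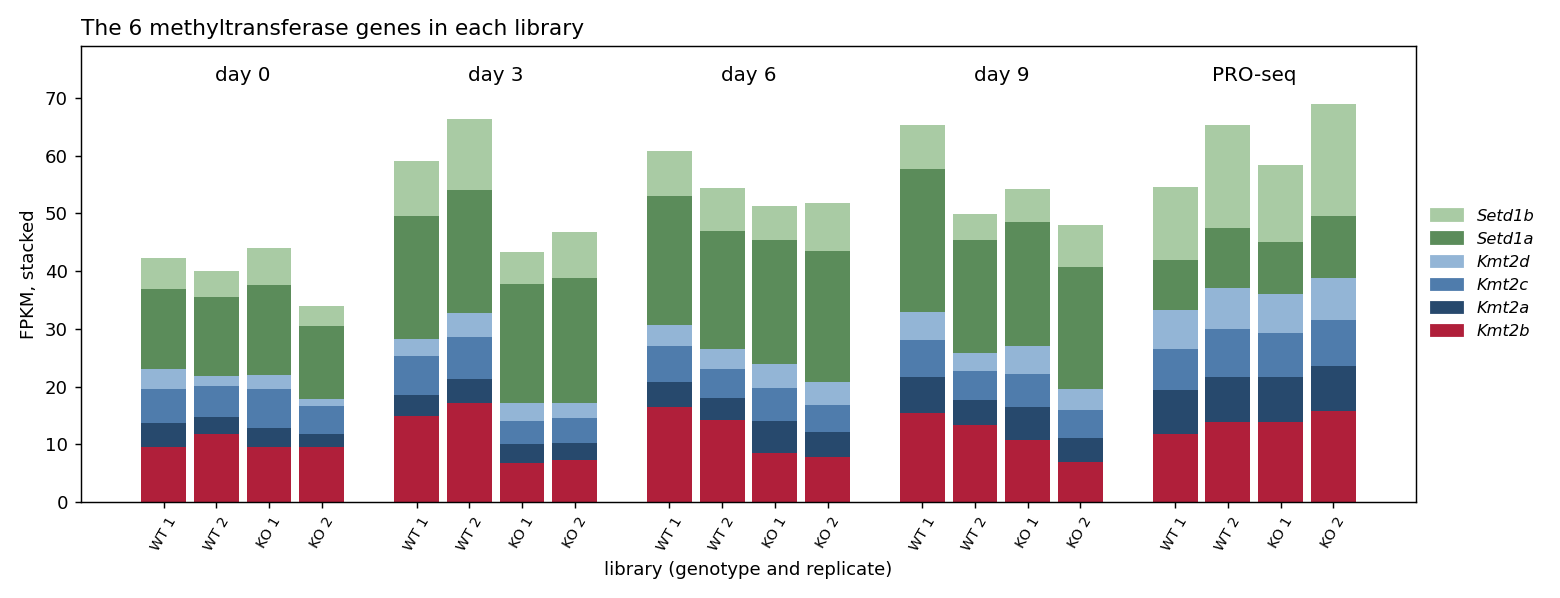
FPKM of the 6 methyltransferase genes stacked for each of the 20 libraries (vertical axis from 0), labelled by genotype and replicate. The Kmt2b segment at the base shrinks in the KO libraries of days 3 and 6, and the stack above it sums to 36.7 and 39.5 FPKM in KO and 44.2 and 49.2 in WT at day 3.

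Of the shared core, Rbbp5 fell at day 3 and Ash2l was called at no day. RBBP5 links the catalytic SET domain to ASH2L within the core. At day 3 Rbbp5 was 29.8 and 30.7 FPKM in WT and 22.6 and 24.6 in KO, and fell by 0.35 (SE 0.0757, interval -0.53 to -0.16, limma adjusted p 0.0304). Its adjusted p was 0.125, 0.158 and 0.0687 without the first WT, the second WT or the first KO library, and 0.0597 with no filter on low values. The KO libraries also lay below WT at the other days and in PRO-seq, without a call: 27.9 and 28.9 FPKM against 27.4 and 22.1 at day 0, 31.7 and 30.3 against 25.1 and 25.7 at day 6 (limma adjusted p 0.0595), and 29.9 and 28.0 against 26.4 and 25.9 at day 9. In PRO-seq they were 8.33 and 11.4 in WT and 7.29 and 7.60 in KO, a difference of -0.35 with an interval of -0.73 to 0.02 and a limma adjusted p of 0.316. Rbbp5 was the one gene of the 10 whose KO libraries lay below the WT libraries in all 5 tables. In a single table the genotypes did not overlap, in either direction, for 43.3 to 68% of all genes. The share of all genes that did so in all 5 was not counted.

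Ash2l, whose product stimulates the methyltransferase, was 78.6 and 77.3 FPKM in WT and 68.9 and 73.1 in KO at day 0. At day 3 the groups overlapped, with 71.8 and 65.9 against 76.9 and 66.5. At day 6 it was 58.7 and 59.9 in WT and 72.3 and 62.7 in KO, and at day 9 56.3 and 59.2 against 69.8 and 70.4. The KO libraries thus lay below WT at day 0 and above WT at days 6 and 9, with differences of -0.13, 0.18 and 0.28 and limma adjusted p-values of 0.778, 0.213 and 0.197. The test of the change between days is given further on.

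Kmt2c and Rbbp5 are the COMPASS genes besides Kmt2b called lower at day 3, so the 250 bases before their annotated starts are shown. The sequences are from RefSeq (build GRCm38.p6, where 6 of the 10 genes had an entry) and run 5′ to 3′ on the gene's strand. CG dinucleotides, the bases that the CXXC domain of MLL2 binds when unmethylated, are in capitals. Kmt2c lies at chr5:25498784-25499033 on the minus strand and Rbbp5 at chr1:132477117-132477366 on the plus strand.
Kmt2c: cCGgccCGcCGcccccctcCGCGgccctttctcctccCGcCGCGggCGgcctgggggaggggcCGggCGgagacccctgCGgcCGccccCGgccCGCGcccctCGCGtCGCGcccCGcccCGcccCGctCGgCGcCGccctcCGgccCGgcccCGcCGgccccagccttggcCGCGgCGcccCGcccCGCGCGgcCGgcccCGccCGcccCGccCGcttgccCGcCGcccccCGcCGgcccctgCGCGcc
Rbbp5: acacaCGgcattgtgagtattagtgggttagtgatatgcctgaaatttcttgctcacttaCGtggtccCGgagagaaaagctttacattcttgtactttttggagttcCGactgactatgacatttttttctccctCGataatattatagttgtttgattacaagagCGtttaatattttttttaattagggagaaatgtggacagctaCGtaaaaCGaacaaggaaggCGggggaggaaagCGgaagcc
The window of Kmt2c held 48 CG dinucleotides, a number that 0.186% of 32851 RefSeq promoter windows of the same length reach, and 91.6% of its bases were G or C. That of Rbbp5 held 10, which 37.8% of windows reach, and its share of G or C was 40.0%. Among the enzyme genes that were not called, the window of Kmt2a held 29, that of Kmt2d 26 and that of Setd1a 25, against a median of 6 over all windows. Men1, a subunit gene called in no single table, had windows with 8, 10 and 9. A link between CG content and the differences in RNA was not tested. The windows describe sequence alone, since the deposited peaks use build mm9 and were not used here.

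Men1 and Cxxc1 encode subunits that mark different complexes, menin in those of MLL1 and MLL2 and CFP1 in those of SETD1A and SETD1B, and both had higher KO means at all 4 days. Cxxc1 was 11.1 and 8.99 FPKM in WT and 12.8 and 11.9 in KO at day 0, and 12.4 and 11.1 against 14.5 and 14.0 at day 3 (difference 0.26, limma adjusted p 0.0805). At day 6 it was 12.1 and 11.1 in WT and 16.5 and 15.6 in KO, and rose by 0.43 (SE 0.0928, interval 0.21 to 0.66, limma adjusted p 0.0321). With the first or the second WT library left out the adjusted p was 0.124 or 0.198, and with no filter on low values 0.0728. At day 9 it was 13.1 and 12.4 against 19.4 and 15.8 (difference 0.42, interval 0.10 to 0.75, limma adjusted p 0.121). The KO libraries lay above the WT libraries at all 4 days, while in PRO-seq 6.28 and 4.93 in WT overlapped 6.17 and 7.08 in KO. How many of all genes stood apart in this way at all 4 days was not counted.

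Men1 was 11.97 and 13.9 FPKM in WT and 14.8 and 14.4 in KO at day 0, 15.4 and 14.9 against 18.5 and 16.98 at day 3, and 18.5 and 16.4 against 17.8 and 19.8 at day 6. At day 9 the WT libraries held 15.7 and 15.3 and the KO libraries 19.1 and 19.0. The genotypes overlapped at day 6 alone, and no single day passed, with limma adjusted p-values of 0.108 to 0.740. In PRO-seq it was 12.2 and 11.99 in WT and 12.98 and 12.8 in KO, a difference of 0.08 with an interval of -0.15 to 0.31.

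Counted over the 10 genes, 0 were called at day 0, where limma called 3.32% of all genes tested (1.93% lower, 1.4% higher). At day 3 3 were called lower, where 11.5% of all genes were, and 0 higher. The calls at day 6 were 1 lower and 1 higher, where 7.92% of all genes were lower and 5.4% higher. At day 9 0 were called, against 5.46% of all genes (3.52% lower), and in PRO-seq 0 were called, against 1.5% (0.832% lower). The fit of recovered reads with voom, tried after seeing the data, also called 0 at days 0 and 9 and in PRO-seq. An unadjusted limma p under 0.05 was held by 0, 6, 3 and 4 of the 10 genes at days 0, 3, 6 and 9. In PRO-seq it was held by 0. Of all genes tested, 1753 of 11318, 4332 of 11088, 3524 of 11184 and 2760 of 11420 held it at these days. In PRO-seq 2491 of 14535 did. The median difference of the 10 genes was -0.08, -0.23, 0.07 and 0.03 at days 0, 3, 6 and 9 and 0.06 in PRO-seq, beside -0.01 to 0.02 for all genes tested. The libraries of the genotypes did not overlap for 4, 7, 5 and 5 of the 10 genes over the days and for 2 in PRO-seq, where this held for 43.3, 68, 61.8, 56.9 and 48.5% of all genes.

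Cell type markers differed between genotypes at day 0, where none of the 10 genes was called, and at days 3 and 6. At day 0 no marker was called, but every summed list stood apart. Pluripotency sums were 2489 to 2586 FPKM in KO and 2627 to 3280 in WT. Neural sums were 37.6 to 40.8 and 45.1 to 49.75. KO was higher for mesoderm (7.5 to 9.8 against 5.5 to 5.6) and endoderm (1.82 to 2.12 against 1.35 to 1.43). It was also higher for fibroblast (3.86 to 4.3 against 2.6 to 2.8) and trophoblast markers (23.1 to 25.8 against 20.3 to 21.5). Of 8 pluripotency markers, 5 fell and 1 rose at day 3, and 4 fell and 1 rose at day 6. Their sums overlapped, with 1755 to 2025 FPKM in KO and 2008 to 2160 in WT at day 3. At day 6 the sums were 1699 to 1893 and 1875 to 1879. Those of the 6 mesoderm markers overlapped too. They were 1.785 to 2.99 FPKM in KO and 2.051 to 2.355 in WT at day 3. At day 6 they were 3.03 to 3.49 and 2.89 to 3.18. Nanog went from a mean of 275.7 FPKM in WT to 124.2 in KO at day 3 and from 194.0 to 110.6 at day 6. The 5 trophoblast markers summed to 17.9 to 23.0 FPKM in KO and 9.84 to 10.1 in WT at day 3 and to 18.9 to 67.4 and 11.8 to 13.9 at day 6. They did not move together at day 3: the keratin genes Krt8 and Krt18 rose, Eomes fell by 0.66 (limma adjusted p 0.0325), and Elf5 was under 0.1 FPKM in both genotypes. The 5 endoderm markers summed to 1.68 to 2.32 FPKM in KO and 0.904 to 1.09 in WT at day 3, where 0 of them reached the level for a test. At day 6 they summed to 3.37 to 14.0 FPKM in KO, far apart between the libraries, and 0.454 to 0.842 in WT. Of the 5, 1 was tested at day 6 and was called higher. The 4 fibroblast markers summed to 5.13 to 8.09 FPKM in KO and 2.43 to 2.67 in WT at day 3, nearly all of it Thy1 (7.58 and 4.82 against 2.51 and 2.29), with Col1a1 and Col3a1 at 0.231 FPKM or less and Col1a2 at a mean under 0.1 in both genotypes. The 4 neural markers summed to 58.3 to 65.0 FPKM in KO and 66.7 to 71.9 in WT at day 3 and to 47.7 to 51.6 and 54.1 to 55.8 at day 6, where on both days Tubb3 fell and Nes rose, from a mean of 1.98 to 9.41 FPKM at day 3. At day 9 the ranges overlapped for pluripotency, trophoblast, endoderm, mesoderm and neural markers, with 1 of the 5 endoderm markers called higher. The fibroblast list stood at 10.2 to 10.9 FPKM in KO and 5.49 to 6.75 in WT, with Thy1 called higher. The part of these markers in the COMPASS differences was not tested, and in bulk RNA a change in the mix of cells and a change of RNA per cell cannot be told apart.

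Averaging the within-day differences over the 4 days used 8 WT and 8 KO libraries and gave narrower intervals. The model took the libraries as independent, but no label says whether the days came from separate drug treatments. The intervals may therefore understate the spread between treatments. Of the 10 genes, 2 fell and 2 rose, where limma called 20.4% of all genes lower and 20.2% higher. Both counts were thus near the share of all genes. Kmt2b fell by 0.68 (SE 0.0826, limma adjusted p 4.62e-05) and Rbbp5 fell by 0.24 (SE 0.0486, limma adjusted p 0.0018), both lower at 4 of 4 days. Cxxc1 rose by 0.35 (SE 0.0592, limma adjusted p 5.56e-04) and Men1 by 0.19 (SE 0.0484, limma adjusted p 0.0074), both higher at 4 of 4 days. The share of all genes with the same sign at all 4 days was not counted. These 4 calls held in all 20 alternatives tried for each. The 2 genes that rose are subunits of different complexes, and neither is a methyltransferase.

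Over the days no other COMPASS methyltransferase gene was called higher. The mean difference was -0.08 for Kmt2a (interval -0.31 to 0.14), -0.06 for Kmt2d (-0.34 to 0.22), 0.00 for Setd1a (-0.12 to 0.13) and -0.17 for Setd1b (-0.44 to 0.11). Their upper bounds correspond to folds of 1.101, 1.16, 1.09 and 1.08 on the log2(FPKM + 1) scale. Kmt2c lay at -0.21 (interval -0.38 to -0.04), with a limma adjusted p of 0.0524, and of 0.0077 with the replicate number as a block. It was also lower at 4 of 4 days. Ash2l, at 0.09 (interval -0.01 to 0.20), had a limma adjusted p of 0.128.

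**Figure D4:**
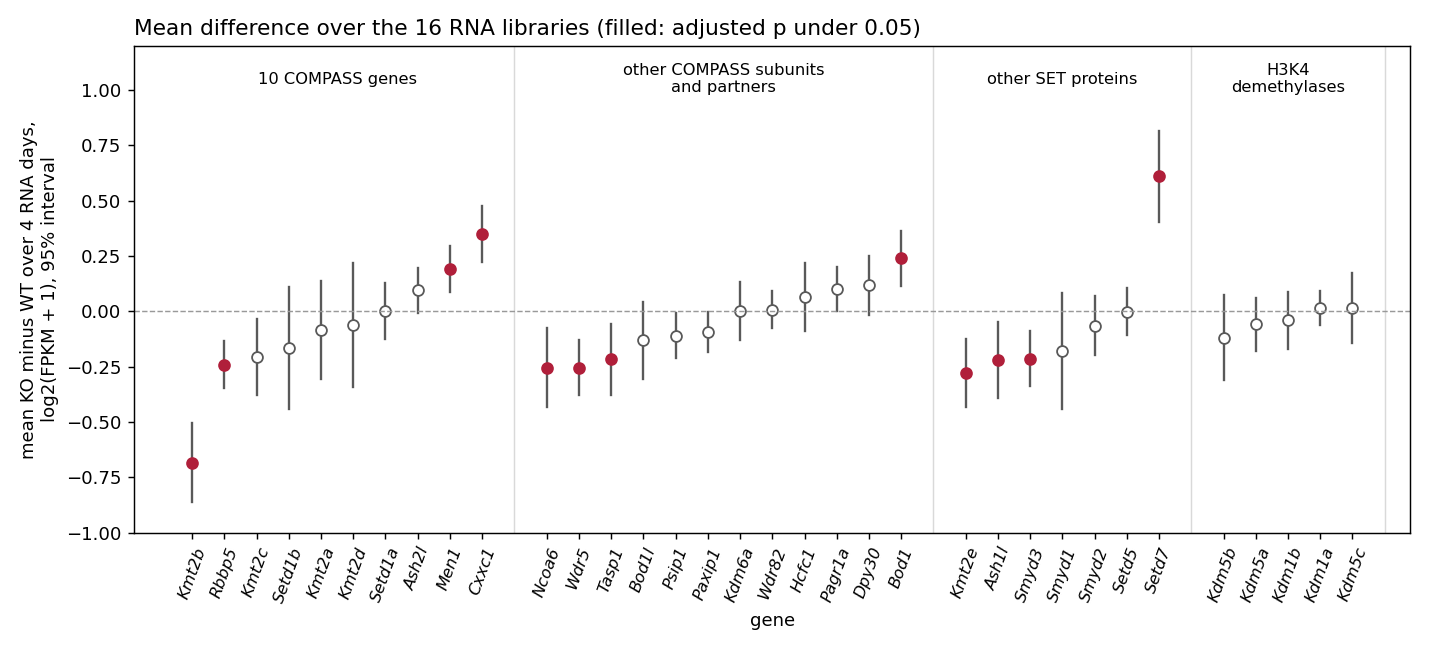
Mean KO minus WT difference over the 4 RNA days (vertical axis, log2(FPKM + 1)) with 95% intervals from limma over 16 libraries, for the 10 COMPASS genes and 3 lists of related genes, filled for an adjusted p under 0.05. Kmt2b at -0.68 and Setd7 at 0.61 lie farthest from 0, and the intervals of Kmt2a, Kmt2d, Setd1a and Setd1b include 0.

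In the direct test between days, the KO effect of a later day was called different from that of day 0 for 0 of the 10 genes, where limma called 1.34% of all genes at day 3, 1.92% at day 6 and 2.01% at day 9. Of the 10 genes, 2 had an unadjusted p under 0.05 at each of these days. So did 1628, 1695 and 1902 of all 11368 genes tested. For Kmt2b the effect was lower than at day 0 by a log2 difference of -0.95 at day 3 (interval -1.45 to -0.44, limma adjusted p 0.0677), -0.69 at day 6 and -0.52 at day 9. With the replicate block the adjusted p was 0.0147 at day 3 and 0.0368 at day 6, and that of Kmt2c at day 3 (-0.63) went from 0.202 to 0.0402. For Ash2l the change of effect from day 0 was 0.31 at day 6 and 0.41 at day 9 (limma adjusted p 0.282 and 0.142). The different signs of Ash2l at day 0 and later were therefore not beyond the threshold for a difference between days, and its equality over days is not shown.

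Of 27 other genes that act on H3K4, few moved in a single table. The list held 13 further COMPASS subunits and partners, 8 other SET or PRDM proteins reported to methylate or bind H3K4 and 6 H3K4 demethylases. None of the 13 subunits and partners and none of the 6 demethylases was called in any table. Among the 8 SET or PRDM proteins 1 rose at day 3, and 1 rose and 1 fell at day 6. Of all genes tested, limma called 3.32, 21.2, 13.3 and 5.46% at days 0, 3, 6 and 9 and 1.5% in PRO-seq. Prdm9 and Kdm5d lay under 1 FPKM in every table's mean and were not tested, nor was Hcfc2 at days 0 and 3.

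Setd7, a SET-domain enzyme first described as an H3K4 monomethyltransferase that also methylates other proteins, rose. It was 2.82 and 2.87 FPKM in WT and 7.88 and 5.86 in KO at day 3, a rise of 1.02 (SE 0.140, limma adjusted p 0.0107). At day 6 it was 4.25 and 4.45 against 11.7 and 8.81, a rise of 1.06 (SE 0.141, limma adjusted p 0.0088). At day 0 the libraries overlapped, with 1.74 and 2.34 in WT and 1.58 and 1.86 in KO, and the difference was -0.15 (limma adjusted p 0.819). At day 9 it was 7.63 and 7.92 in WT and 14.3 and 9.26 in KO (difference 0.51, limma adjusted p 0.172), and in PRO-seq the libraries overlapped. The calls at days 3 and 6 were lost without either WT library, with adjusted p-values of 0.0622 to 0.0710, and that at day 6 also with no filter on low values (0.0555). Smyd1, a muscle SET and MYND domain protein, was 1.56 and 3.04 FPKM in WT and 4.38 and 5.72 in KO at day 0, and 2.21 and 2.09 against 0.989 and 0.994 at day 6. It fell at day 6 by 0.66 (SE 0.116, limma adjusted p 0.0190), while at day 0 the difference of 0.90 had a limma adjusted p of 0.0994. The call at day 6 was lost without the first or the second WT library (limma adjusted p 0.142 and 0.129), with no filter on low values (0.0592) and with the spread from all 16 RNA libraries (0.100).

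Averaged over the 4 days, 8 of the 24 related genes tested were called, a smaller share than the 40.6% of all genes. The shared-core gene Wdr5 (-0.25, limma adjusted p 0.0039), Ncoa6 (-0.25) of the MLL3 and MLL4 complexes, and Tasp1 (-0.22), the protease that cleaves MLL1 and MLL2, fell. Kmt2e (-0.28), Smyd3 (-0.21) and Ash1l (-0.22) fell as well, and Bod1 (0.24) and Setd7 (0.61, limma adjusted p 2.89e-04) rose. Of the shared core, Wdr5 and Rbbp5 were called lower. Dpy30 at 0.12 (limma adjusted p 0.146) and Ash2l at 0.09 (limma adjusted p 0.128) were not called. None of the 5 demethylases tested was called, and their differences ran from -0.12 to 0.01.

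The pattern of Kmt2b over the 16 RNA libraries, as log2(FPKM + 1) minus the mean of its day, was most like that of Brca1 (Pearson r 0.966), Map4 (0.962), Serac1 (0.957), Xylb (0.954) and Neurl1a (0.951) among 10544 genes with a mean of at least 1 FPKM at every day. Each of the 5 fell at days 3 and 6 and was not called at days 0 and 9 or in PRO-seq. They were picked by likeness to Kmt2b in these same RNA libraries. Falls on the days when Kmt2b fell were therefore built into the choice of these genes. At day 3 their differences ran from -0.63 for Xylb to -0.41 for Map4. Of the COMPASS genes, Rbbp5 had the highest coefficient with Kmt2b, 0.85 (rank 312), then Kmt2c with 0.74, and Cxxc1 the lowest with -0.73. These coefficients are descriptions of 16 points that share genotype and replicate structure, and the 5 genes were picked from 10544.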

How the data were processed

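The COMPASS genes and the lists beside them were chosen with earlier results of these data known. The deposited FPKM values, 1 table per RNA day and 1 for PRO-seq, were made by the authors from reads aligned to mm9 with TopHat (RNA) or with cutadapt 1.14, Trimmomatic 0.33 and Bowtie 1.1.2 (PRO-seq, with dm3 beside mm9 for spike-in nuclei), and DESeq2, per the submitters' processing notes. The counting program, annotation and strand setting have no statement in the labels, so overlapping and antisense genes cannot be told apart. Whole reads were recovered from the FPKM steps (100% of values whole, tolerance 0.0001) for depth and for 1 alternative fit.

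Each table was fitted alone with limma 3.58.1 in R 4.3.3 (trend, 2-sided) on log2(FPKM + 1), keeping genes that average at least 1 FPKM. The added 1 understates changes of low genes. Adjusted p-values are Benjamini-Hochberg over all genes tested, called under 0.05. Intervals are 95% and unadjusted. The mean over days and the differences between days came from 1 limma model of 16 libraries in 8 groups. Days were otherwise set side by side without a test, since tables were normalized separately. Each of the 10 genes was named, with Magohb as a check, the related genes called in at least 1 table, and the 5 genes most like Kmt2b; related genes called only in the mean over days were named after their values were seen. Same-numbered WT and KO libraries deviated together (correlations of 0.57, 0.36, 0.25 and 0.31 at days 0, 3, 6 and 9 and 0.36 in PRO-seq), a hint of pairing from the data that the labels do not state. The fits were tested on simulated data. Peak and signal files were not used here.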

Additional observations from a re-analysis of the deposited data

Results flagged for a closer look

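In the limma model of 16 RNA libraries the KO effect of 2 related genes, neither of them among the 10 COMPASS genes, differed between days past the threshold. The KO effect on Setd7 was higher at day 6 than at day 0 by 1.21 on the log2(FPKM + 1) scale (SE 0.266, limma adjusted p 0.0376). Over 20 alternatives its adjusted p ran from 0.0189 to 0.161, and 8 kept the call. The KO effect on Smyd1 was lower than at day 0 by a difference of -1.56 at day 6 (limma adjusted p 0.0366) and -1.58 at day 9 (limma adjusted p 0.0394). At day 0 the KO libraries of Smyd1 lay above the WT libraries, and at days 6 and 9 below them. These calls were kept in 7 and 9 of 20 alternatives, with adjusted p-values of 0.0149 to 0.159 at day 6 and 0.0139 to 0.117 at day 9. Levels of Smyd1 were low, at most 5.72 FPKM.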

How the results depend on the processing

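The 91 single-gene differences were recomputed in 1270 alternatives: 1118 kept their direction and their side of the threshold, 64 lost a call, 38 gained one and 50 changed sign. None of the 50 sign changes touched a called difference, and none was called in the alternative. Groups of 2 libraries limit precision, and intervals cover only the spread between them.

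Counts over all genes moved most. With no filter on low values the calls went from 376 to 0 at day 0, 2356 to 959 at day 3, 1490 to 333 at day 6, 623 to 0 at day 9 and 218 to 0 in PRO-seq, and with a filter at 5 FPKM to 72, 1425, 894, 346 and 68. The replicate block gave 2007, 3667, 2537, 1398 and 1290, the spread from all 16 RNA libraries 1134 at day 0 and 1811 at day 9, and voom on recovered reads 823 in PRO-seq. The block on 1 table rests on 1 residual degree of freedom before moderation, and its pairs have no label. The cause of these shifts was not tested.

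Of the 10 genes, 1 was called higher at day 3 with the block (Cxxc1) and 0 at day 6 with no filter. Setd1b was called lower at day 3 with equal total FPKM, equal upper quartile, the block or voom. At day 6 2 were lower with the block or voom (Kmt2b and Rbbp5). At day 9 1 was lower with the block, and 1 lower and 1 higher with the spread from 16 libraries (Kmt2b and Cxxc1). In the 16-library model the block called 2 lower for day 3 minus day 0 and 1 for day 6 minus day 0, and added Kmt2c to the mean over days. Related genes called went from 0 to 1 (block) and 2 (16-library spread) at day 0. At day 3 they went from 1 to 0 (filter at 5), 2 (equal total), 8 (block) and 4 (voom), at day 6 from 2 to 0 (no filter), 1 (filter at 5), 5 (block), 1 (16-library spread) and 4 (voom), and at day 9 from 0 to 1 (16-library spread).

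Leaving out 1 library, all genes called ranged over 0 to 511 at day 0, 151 to 3059 at day 3, 157 to 2684 at day 6, 92 to 1109 at day 9 and 0 to 31 in PRO-seq. Of the 10 genes, 1 to 4 were lower at day 3, 0 to 2 lower and 0 to 2 higher at day 6, 0 to 1 lower and 0 to 1 higher at day 9, and 0 to 1 lower for day 3 minus day 0. Related genes called were 0 to 1, 0 to 5, 0 to 5 and 0 to 2 at days 0, 3, 6 and 9, and 5 to 9 in the mean over days. Without either WT library Kmt2c and Rbbp5 lost their calls at day 3 and Cxxc1 at day 6, Rbbp5 also without the first KO library. Kmt2b lost its call at day 6 without the first WT library and kept that at day 3 in all 12 alternatives.

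All 50 sign changes were of uncalled differences. Most came from leaving out a library, and 9 came with scaling or voom. With equal total FPKM they were Kmt2c 0.0212 and Setd1b 0.0038 at day 0 and Setd1a -0.0061 in the mean over days. With equal upper quartile they were Setd1a -0.00011 at day 0, and Kmt2a -0.0029, Kmt2c -0.0302 and Kmt2d -0.0243 in PRO-seq. With voom Kmt2c was -0.0102 and Kmt2d -0.0036 in PRO-seq. Without 1 library, day 0 ranges were -0.22 to 0.21 (Kmt2c), -0.69 to 0.059 (Kmt2d), -0.37 to 0.31 (Setd1b), -0.29 to 0.0049 (Kmt2b) and -0.12 to 0.17 (Setd1a). Day 3 gave -0.047 to 0.16 (Ash2l) and -0.042 to 0.026 (Setd1a), and day 6 -0.23 to 0.013 (Kmt2c), -0.027 to 0.10 (Setd1a) and -0.32 to 0.087 (Setd1b). Day 9 gave -0.30 to 0.11 (Kmt2a), -0.21 to 0.056 (Kmt2c), -0.20 to 0.11 (Setd1a), -0.18 to 0.38 (Kmt2d) and -0.21 to 0.43 (Setd1b). PRO-seq gave -0.095 to 0.11 (Kmt2c), -0.024 to 0.047 (Kmt2d), -0.079 to 0.16 (Setd1a) and -0.16 to 0.35 (Setd1b), and the mean over days -0.16 to 0.033 (Kmt2d) and -0.038 to 0.040 (Setd1a).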
